A study of Mus musculus with 18 samples.

Results

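The NF-kB pathway genes described here are 10 genes that encode subunits of NF-kB, its inhibitors, and genes it is known to switch on: Nfkb1, Nfkb2, Relb, Nfkbia, Nfkbie, Bcl3, Tnfaip3, Birc3, Traf1 and Icam1. They were taken by symbol, and all 10 were found among the 34591 gene symbols of the count data. All 10 also passed the filter on low counts in both sets of cultures. The study sequenced poly(A)-enriched RNA from 4T1, a mouse mammary tumour cell line from the BALB/c strain, in 18 libraries, with 3 cultures in each of 6 groups. It asked what TGFb1, a secreted signalling protein, and forced expression of Wisp1, which encodes a CCN protein of the extracellular matrix, do to the mRNA of these cells.

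Parental 4T1 cells were left in fresh RPMI medium for 24 h (untreated) or were given 2 ng/mL recombinant human TGFb1 in fresh medium for 24 h. Stable lines were made by lentiviral transduction and puromycin selection, with an empty vector (EV) or with a vector expressing Wisp1. Each stable line was grown in plastic dishes and in dishes coated with collagen type I, and was harvested before confluence. The lentivirus and the puromycin selection were thus shared by all 4 groups of stable lines and absent from the parental groups. Each stable line is described as 1 established line, so its 3 libraries are cultures of that line and p-values measure the spread between cultures.

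NF-kB is a family of dimeric transcription factors held in the cytoplasm by IkB proteins until IkB kinase marks the inhibitor for destruction. Freed dimers enter the nucleus and switch on genes that include their own inhibitors and ubiquitin-editing and adaptor proteins of the pathway. The levels of these mRNAs are therefore widely used as a readout of NF-kB activity. In a second, slower branch the p100 precursor encoded by Nfkb2 is processed to p52, which pairs with RelB. In mammary tumour cells the pathway is known for its part in survival, inflammation and invasion.

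The promoters of the 5 members that passed the test in at least 1 comparison below are shown because they differ in whether the window holds a match to the NF-kB consensus. Each sequence is the RefSeq window of GRCm38.p6 from 250 bases before the start of the gene to 50 bases from it on, written 5′ to 3′ along the gene's strand, and capitals mark matches to the NF-kB consensus on either strand. Nfkbie lies at chr17:45555450-45555749 on the plus strand, Birc3 at chr9:7873121-7873420 on the minus strand, Nfkbia at chr12:55492598-55492897 on the minus strand, Traf1 at chr2:34961723-34962022 on the minus strand and Icam1 at chr9:21015690-21015989 on the plus strand.
Nfkbie: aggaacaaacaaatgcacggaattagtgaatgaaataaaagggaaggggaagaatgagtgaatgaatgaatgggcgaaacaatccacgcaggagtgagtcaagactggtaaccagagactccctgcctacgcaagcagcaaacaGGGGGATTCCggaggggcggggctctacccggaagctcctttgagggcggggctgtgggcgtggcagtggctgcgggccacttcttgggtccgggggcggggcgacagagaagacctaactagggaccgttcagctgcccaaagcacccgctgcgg
Birc3: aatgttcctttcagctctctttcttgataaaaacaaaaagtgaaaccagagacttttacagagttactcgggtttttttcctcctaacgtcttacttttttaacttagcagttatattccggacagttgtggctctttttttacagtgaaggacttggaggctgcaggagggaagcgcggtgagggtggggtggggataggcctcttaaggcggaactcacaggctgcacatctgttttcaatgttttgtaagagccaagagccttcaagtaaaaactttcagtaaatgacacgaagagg
Nfkbia: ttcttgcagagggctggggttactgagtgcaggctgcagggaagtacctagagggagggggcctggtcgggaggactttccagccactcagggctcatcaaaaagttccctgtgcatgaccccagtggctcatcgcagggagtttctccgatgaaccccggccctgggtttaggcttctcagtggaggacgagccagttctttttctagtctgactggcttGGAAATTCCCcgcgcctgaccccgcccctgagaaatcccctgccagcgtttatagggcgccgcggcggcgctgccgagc
Traf1: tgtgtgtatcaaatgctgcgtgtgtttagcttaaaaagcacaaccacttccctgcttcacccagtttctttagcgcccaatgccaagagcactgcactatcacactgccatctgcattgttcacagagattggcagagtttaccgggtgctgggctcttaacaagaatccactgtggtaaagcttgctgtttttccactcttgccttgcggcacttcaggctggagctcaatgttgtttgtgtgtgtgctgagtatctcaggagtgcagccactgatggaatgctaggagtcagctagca
Icam1: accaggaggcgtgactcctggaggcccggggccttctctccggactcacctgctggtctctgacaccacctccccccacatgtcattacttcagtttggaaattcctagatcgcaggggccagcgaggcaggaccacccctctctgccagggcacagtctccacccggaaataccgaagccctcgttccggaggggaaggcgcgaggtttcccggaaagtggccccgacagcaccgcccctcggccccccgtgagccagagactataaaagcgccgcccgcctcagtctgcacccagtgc
The Nfkbie window held 1 match, 106 bases upstream of the start. The Nfkbia window held 1 match, 29 bases upstream, which read GGGAATTTCC on the opposite strand and so also met the narrower pattern GGGANTTTCC, itself a form of the consensus. No match to these letters was found in the Birc3, Traf1 and Icam1 windows, which says only that these letters are not there. Every match found began with GGG on its strand. A near form without GGG, such as tggaaattcc in the Icam1 window, was not counted.

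Of the 10 members, 8 were in the RefSeq promoter table, with 11 windows, and 7 of those windows held at least 1 match to the 10-base consensus. Over all 32851 windows of 300 bases in the table the share was 8.46%, and by gene it was 5 of 8 members against 9.55% of 27025 genes. The narrower GGGANTTTCC, searched on both strands, was in 3 of the 11 windows, which belong to Nfkb2 and Nfkbia, and in 0.411% of all windows. The windows of Nfkb2 starts 2 and 3 overlap and hold the same match, so the 3 windows held it at 2 places in the genome. Nfkb2 had matches in each of its 3 start windows, Tnfaip3 had 2 in its second start window, of which 1 read GGGGATTTCC on the opposite strand 12 bases upstream, and Bcl3 had 1, GGGAAGTCCC, just after its start. These matches describe the sequence and were not tested as sites.

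Depth was high for every library, with 37552858 to 94401699 counts in genes, and the lowest count of any member in any library was 53, for Icam1. Wisp1 itself stood at 897 to 1120.5 counts per 1000000 gene counts (CPM, scaled with TMM factors over the 18 libraries) in the 6 libraries of the Wisp1 lines and at 14.1 to 72.1 CPM in the 6 EV libraries. The 5 epithelial markers summed to 2076 to 4683 CPM in every library. The 6 endothelial markers were each below 1 CPM throughout. Of 8 leukocyte markers, Cd3e was at 0 in all 18 libraries and 5 were below 1 CPM in every library, Ptprc among them, and the summed level was 4.24 to 21.7 CPM. Of 6 fibroblast markers, Thy1 was at 0 in all 18 libraries, and the sum of 15.1 to 64.1 CPM was almost wholly Pdgfra, at 14.5 to 62.5 CPM.

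Levels between genes were compared per kilobase of merged GENCODE M21 exons, as the mean over the 18 libraries. Nfkb2, the p100/p52 precursor, was highest at 54.1 CPM per kb, followed by the inhibitor Nfkbia at 39.8 and the deubiquitinase Tnfaip3 at 21.0 CPM per kb. Nfkbie and Nfkb1 were close together at 13.4 and 13.1, Traf1 stood at 9.13, Relb at 7.15 and Birc3 at 5.04 CPM per kb. Before division by length Nfkbie was at 40.9 and Nfkb1 at 158 CPM, over merged exons of 3045 and 12061 bases. The order thus depends on the merged lengths, and the annotation used for counting is not known. Bcl3 at 1.84 and the adhesion molecule Icam1 at 0.461 CPM per kb were the least abundant. Part of the exon length of Nfkb2, Bcl3 and Icam1 is shared with genes on the opposite strand, up to 11.7% for Icam1 with Gm47079 and up to 11.6% for Nfkb2 with AC114539.1. The strand setting of the counting is not given in the sources used here, so their levels carry that uncertainty.

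The untreated parental cultures had the lowest group mean for 7 of the 10 members, all but Birc3, Traf1 and Icam1, and the TGFb1 cultures had the highest for Nfkb1, Nfkbie, Tnfaip3, Bcl3 and Birc3. Parental and stable cultures were grown under different protocols, so levels across them were described and not tested. When the 6 groups were ordered by mean for each gene, most neighbouring groups had ranges that overlapped. The exceptions were the gap above untreated for Relb, Nfkbie and Tnfaip3, the gap below TGFb1 for Nfkbie and Birc3, and the gap between the collagen and the plastic groups of the stable lines for Nfkbia and Traf1. Icam1 had the widest range of group means, 1.53 on the log2 scale, and Nfkb1 the narrowest, 0.26. Cultures differed more among themselves in the parental groups, where the median member SD was 0.22 log2 in untreated and 0.21 in TGFb1 cultures, than in the stable lines, where it was 0.10 to 0.13. Over all genes tested the same medians were 0.22 and 0.24 in the parental groups and 0.07 to 0.09 in the stable lines.

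**Figure D1:**
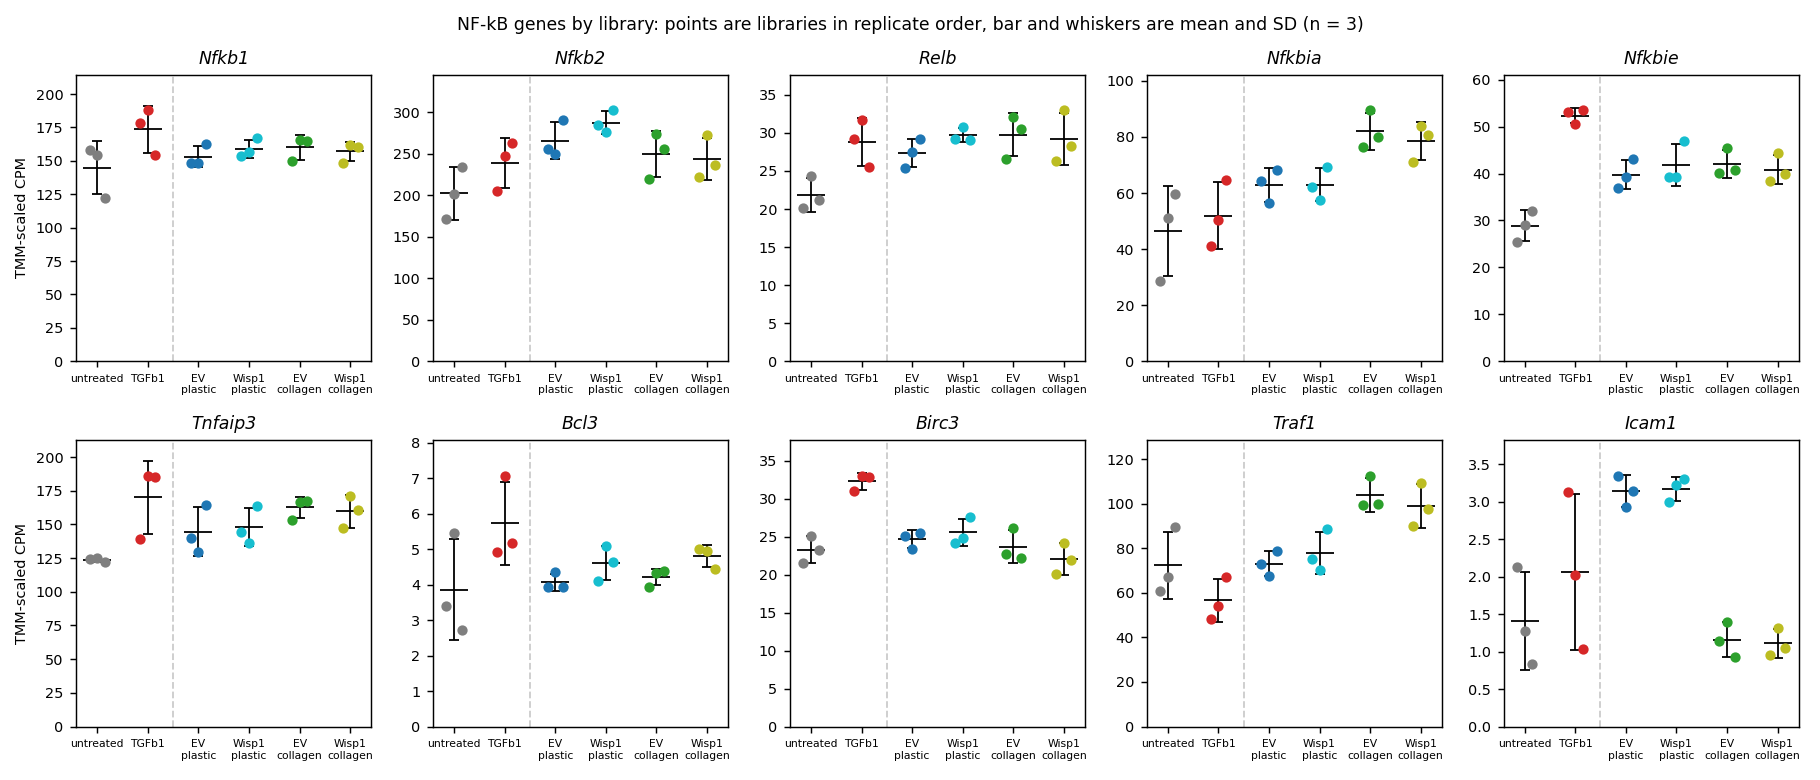
TMM-scaled CPM (y axis, linear, from 0) of each of the 10 genes in the 18 libraries, by group, with points for libraries in replicate order and a bar and whiskers for the mean and SD of 3. The dashed line separates the parental from the stable-line cultures. Nfkbie and Birc3 stand apart in the TGFb1 cultures, while Nfkbia and Traf1 are higher and Icam1 is lower on collagen than on plastic.

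TGFb1 for 24 h raised 2 of the 10 genes past the test and lowered none. Nfkbie, which encodes IkB epsilon, rose 1.79-fold and Birc3, which encodes the ubiquitin ligase cIAP2, rose 1.37-fold. The estimates of 9 of the 10 genes were positive, with a median log2 change of 0.41 over the 10 against -0.01 over the 14874 genes tested. Traf1, which encodes an adaptor of the TNF receptor-associated factor family, was the member with a negative estimate. By edgeR's quasi-likelihood test with Benjamini-Hochberg adjustment over all genes, 6.14% of genes were called higher and 4.92% lower, which is the background for these counts of 2 and 0. In bulk RNA of this kind, fewer cells of a type and less RNA per cell cannot be told apart.

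Among the inhibitors, Nfkbie stood at 25.5, 29.1 and 32.1 CPM in the untreated cultures 1 to 3 and at 53.0, 50.5 and 53.5 CPM in the TGFb1 cultures 1 to 3. Every treated culture was above every untreated one, and the treated cultures lay closer together than the untreated ones. The group means were 28.9 ± 3.31 and 52.3 ± 1.59 CPM (SD, n = 3), and the log2 change was 0.84 ± 0.12 (SE), with an adjusted p of 0.0089 by edgeR. Without untreated culture 2 the adjusted p was 0.057. Nfkbia, which encodes IkB alpha, the inhibitor resynthesised first after NF-kB activation, was at 28.5, 50.9 and 59.7 CPM untreated and at 41.0, 50.3 and 64.6 CPM with TGFb1. Its ranges overlapped, with untreated culture 1 below every treated culture and treated culture 3 above every untreated one, and the change was 0.15 ± 0.29 (edgeR adjusted p = 0.83). Bcl3, an atypical IkB that binds p50 and p52 dimers in the nucleus, was scarce in both groups. It was at 3.40, 5.45 and 2.74 CPM untreated and at 4.94, 7.08 and 5.18 CPM with TGFb1, with overlapping ranges and a change of 0.55 ± 0.31 (edgeR adjusted p = 0.34).

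Of the genes for ubiquitin enzymes and adaptors, Birc3 was at 21.5, 25.1 and 23.3 CPM untreated and at 31.0, 33.0 and 32.8 CPM with TGFb1. The groups did not overlap. The log2 change of 0.45 ± 0.11 had an edgeR adjusted p of 0.048, and the call was lost when any 1 of the 6 libraries was left out (adjusted p = 0.08 to 0.178) and with no filter on low counts (0.094). Tnfaip3 encodes A20, which removes and rebuilds ubiquitin chains on pathway proteins. It was nearly constant at 124, 125 and 122 CPM in the untreated cultures and was at 139, 186 and 185 CPM with TGFb1. All 3 treated cultures were higher, treated culture 1 by the least, and the change of 0.44 ± 0.13 did not pass in edgeR (adjusted p = 0.08), though it did in DESeq2 (0.043) and in edgeR without TGFb1 culture 1 (0.019). Traf1 was at 60.8, 67.0 and 89.4 CPM untreated and at 48.4, 54.3 and 67.0 CPM with TGFb1. Each treated culture was below the untreated culture of the same number, but the ranges overlapped, and the change was -0.37 ± 0.19 (edgeR adjusted p = 0.28).

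Among the subunits, Relb was at 20.1, 24.4 and 21.1 CPM untreated and at 29.2, 31.7 and 25.5 CPM with TGFb1. These ranges did not overlap, and the change of 0.38 ± 0.14 had an edgeR adjusted p of 0.14. Nfkb1, which encodes p105 and p50, was at 158, 155 and 122 CPM untreated and at 178, 188 and 154 CPM with TGFb1 (0.24 ± 0.14, edgeR adjusted p = 0.34). Nfkb2 was at 171, 202 and 234 CPM untreated and at 206, 248 and 263 CPM with TGFb1 (0.22 ± 0.15, edgeR adjusted p = 0.42). Culture 3 was the lowest of both groups for Nfkb1, culture 1 was the lowest of both for Nfkb2, and the ranges of each gene overlapped. Icam1, an adhesion molecule for leukocyte integrins, varied most between cultures, at 2.12, 1.27 and 0.836 CPM untreated and 3.13, 2.03 and 1.04 CPM with TGFb1 (0.53 ± 0.51, edgeR adjusted p = 0.60).

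Across the 10 genes, 4 had treated ranges wholly above the untreated ones (Nfkbie, Birc3, Relb and Tnfaip3), against 16.5% of all genes tested, and 0 had them wholly below, against 14.2%. At an unadjusted p under 0.05, 4 members passed in edgeR, against 24.9% of all genes, and DESeq2 called 3 at an adjusted p under 0.05, against 16.4%. Over all genes the same-numbered treated and untreated libraries deviated together from their group means (r = 0.79, 0.55 and 0.78). Within those pairs 8 members were higher with TGFb1 in 3 of 3 pairs, against 36.3% of all genes, and Traf1 was lower in 3 of 3, against 33.8%. The pairwise log2 differences were 1.06, 0.80 and 0.74 for Nfkbie, 0.53, 0.40 and 0.49 for Birc3, and -0.33, -0.30 and -0.42 for Traf1. Nfkbia alone among the 10 was not of 1 sign in its pairs, at 0.52, -0.02 and 0.11.

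**Figure D2:**
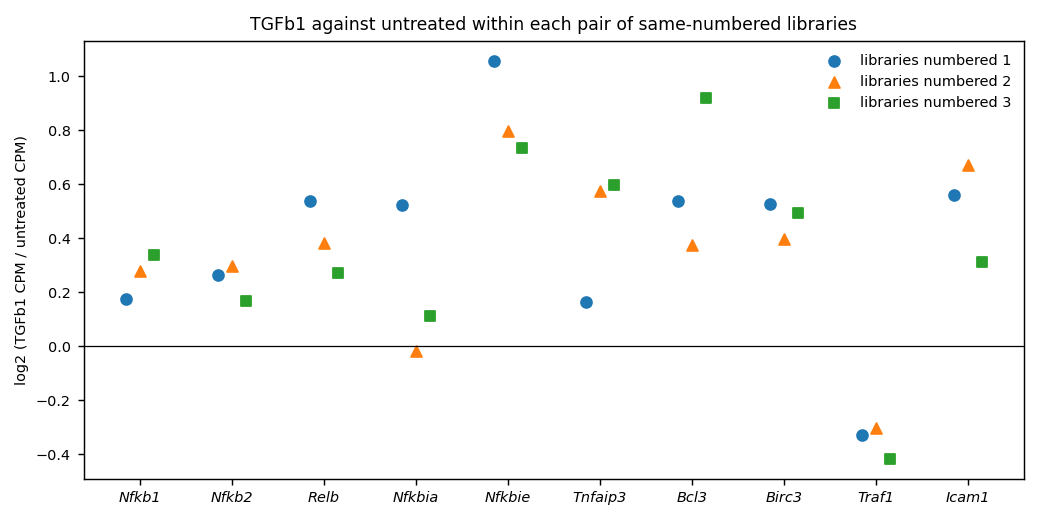
Log2 ratio of CPM, TGFb1 over untreated (y axis), of each of the 10 genes in the 3 pairs of same-numbered libraries, with a marker for each pair. All 3 pairs lie above 0 for 8 genes and below 0 for Traf1, while Nfkbia has 1 pair at -0.02.

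With the replicate number as a block in the edgeR fit, 9 of the 10 genes passed, 8 higher and Traf1 lower, where 22.4% of all genes were called higher and 22.5% lower. The blocked adjusted p was 0.00025 for Nfkbie, 0.0014 for Birc3, 0.0018 for Traf1 (1.29-fold lower), 0.0053 for Relb, 0.0092 for Nfkb2 and 0.0099 for Nfkb1. It was 0.011 for Tnfaip3, 0.012 for Bcl3, 0.031 for Icam1 and 0.188 for Nfkbia. That fit left 2 residual degrees of freedom, and it called 6672 genes. Leaving out pair 1, 2 or 3 left 8, 5 or 9 members called, on 1 residual degree of freedom. Over all genes those fits called 6261, 4344 and 6344, so calls were common throughout. The 5 called without pair 2 were Nfkbie, Birc3, Relb, Bcl3 and Traf1. Summed epithelial markers ran from 2076 to 3916 CPM in the TGFb1 cultures and from 3149 to 4683 CPM in the untreated ones. Leukocyte markers summed to 7.80 to 13.0 CPM and 4.24 to 12.3 CPM, and fibroblast markers to 38.2 to 64.1 CPM and 34.0 to 58.4 CPM, in the same order. The part of any of these in the differences was not tested.

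Around the 10 genes, 72 other genes of the pathway were listed by role. Of these, 71 were in the count data and 66 were tested, and TGFb1 raised 8 and lowered 1 (edgeR adjusted p under 0.05), where 6.14% and 4.92% of all genes were called. Their median log2 change was 0.14, against -0.01 over all genes. The receptors held 3 of the 8. Cd40 rose 11.1-fold to 40.1 ± 16.1 CPM (adjusted p = 0.0057), the bacterial lipoprotein receptor Tlr2 rose 3.71-fold to 55.0 ± 9.30 CPM (adjusted p = 0.0048), and the TNF receptor Tnfrsf1b rose 1.78-fold (adjusted p = 0.012). The inhibitor Nfkbib, which encodes IkB beta, rose 1.48-fold (adjusted p = 0.042), and Rnf31, the catalytic subunit of the linear ubiquitin ligase, rose 1.51-fold (adjusted p = 0.044).

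Among 16 other target genes tested, 3 rose and 1 fell with TGFb1. Only 7 of these 16 estimates were positive, and their median log2 change was -0.40, against 0.41 over the 10 members. Irf1, an interferon-responsive transcription factor, rose 2.28-fold to 158 ± 21.7 CPM (edgeR adjusted p = 0.0056). The cytokine Il6 rose from 0.0243 ± 0.0114 to 1.55 ± 1.47 CPM (adjusted p = 0.019), a level that stayed low and differed widely between cultures. The third was the prostaglandin synthase Ptgs2, at 388 ± 138 and 1187 ± 448 CPM, which falls outside the rule for named genes. The adhesion molecule Vcam1 fell 1.91-fold (adjusted p = 0.015). The subunits Rela and Rel, the 7 genes listed under IkB kinase and related kinases, the 8 other negative regulators and the 3 ligands tested had no member called in either direction.

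**Figure D3:**
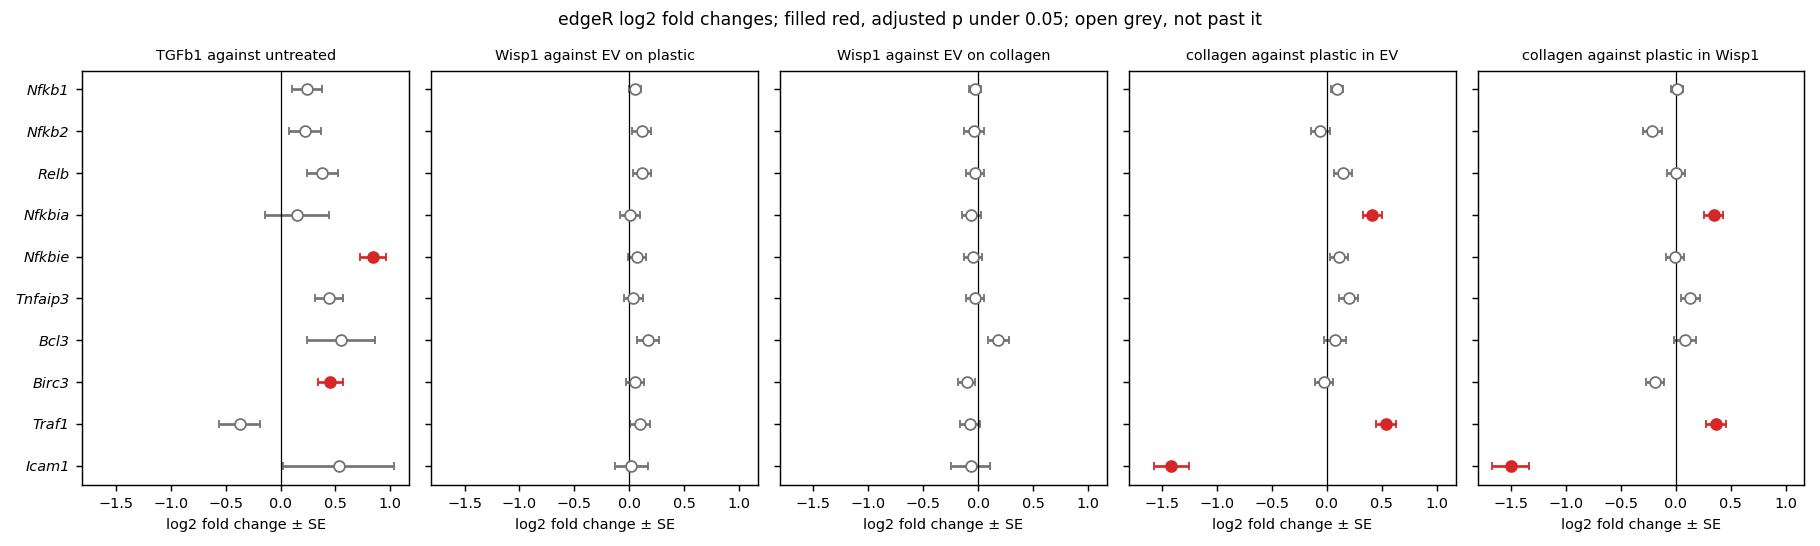
Log2 fold change with its SE (x axis) of the 10 genes in 5 comparisons by edgeR, with filled red points for adjusted p under 0.05 and open grey points for the rest. The 2 filled points for TGFb1 are Nfkbie and Birc3, the 2 Wisp1 panels have none, and both collagen panels have the same 3 genes filled, Nfkbia, Traf1 and Icam1.

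Between collagen type I and plastic, 3 of the 10 genes differed, and did so in both stable lines. In the library labels the plastic groups of both lines carry neighbouring codes, and the collagen groups carry other neighbouring codes. What these codes mark is not stated. Both lines share this split, so their likeness does not separate substrate from label series, and its part was not tested. Icam1 was 2.67-fold lower on collagen than on plastic in the EV line and 2.84-fold lower in the Wisp1 line. Nfkbia was 1.33-fold and 1.27-fold higher, and Traf1 was 1.45-fold and 1.29-fold higher, in the EV and Wisp1 lines. In these comparisons 19.2% of all genes in the EV line and 21.3% in the Wisp1 line were called higher, and 17.3% and 19.1% lower, so 2 members up and 1 down is a share near that of all genes. The median member change was 0.10 in the EV line and 0.01 in the Wisp1 line, against 0.00 and 0.01 over all genes.

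Icam1 was at 3.35, 2.93 and 3.15 CPM in the EV cultures on plastic and at 1.15, 1.40 and 0.933 CPM in those on collagen. In the Wisp1 line it was at 2.99, 3.23 and 3.30 CPM on plastic and at 0.954, 1.32 and 1.05 CPM on collagen. In both lines all 3 collagen cultures were below all 3 plastic cultures by a wide gap. The log2 changes were -1.42 ± 0.16 (edgeR adjusted p = 1.7e-05) and -1.50 ± 0.17 (1.4e-05), the largest of any member in any comparison within the stable lines. All 6 collagen values lay inside the range of the untreated parental cultures, 0.836 to 2.12 CPM, a comparison across culture protocols that was not tested.

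Nfkbia was at 64.3, 56.4 and 68.0 CPM in the EV cultures on plastic and at 76.5, 89.5 and 80.1 CPM on collagen. In the Wisp1 line it was at 62.2, 57.6 and 69.3 CPM on plastic and at 71.1, 84.0 and 80.8 CPM on collagen. The ranges did not overlap in either line, though in the Wisp1 line the highest plastic and lowest collagen culture were close. The log2 changes were 0.41 ± 0.09 (edgeR adjusted p = 0.0026) and 0.34 ± 0.09 (0.0074). Traf1 was at 73.1, 67.8 and 78.6 CPM in the EV cultures on plastic and at 99.2, 113 and 100.03 CPM on collagen. In the Wisp1 line Traf1 was at 75.4, 70.3 and 88.5 CPM on plastic and at 89.9, 109.5 and 97.5 CPM on collagen. All collagen cultures were above all plastic cultures in both lines, with changes of 0.54 ± 0.09 (edgeR adjusted p = 0.00059) and 0.37 ± 0.09 (0.0062).

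The other 7 genes did not pass this test on collagen in either line. Nfkb2 was at 284.5, 276 and 303 CPM in the Wisp1 line on plastic and at 223, 272 and 236 CPM on collagen. Its ranges did not overlap, and the change was -0.21 ± 0.09 (edgeR adjusted p = 0.069). It was called lower by DESeq2 (adjusted p = 0.039) and by edgeR in a fit of only the 6 libraries compared (0.034). In the EV line its ranges overlapped (-0.06 ± 0.09, adjusted p = 0.62). Tnfaip3 ran from 129 to 165 CPM on plastic and from 154 to 167 CPM on collagen in the EV line (0.20 ± 0.08, adjusted p = 0.085), and Birc3 at 25.6 ± 1.81 and 22.1 ± 2.08 CPM in the Wisp1 line (-0.19 ± 0.08, adjusted p = 0.08). Nfkb1, Relb, Nfkbie and Bcl3 had log2 changes between -0.01 and 0.15 in the 2 lines. Ranges that did not overlap were found for 2 members higher and 1 lower in the EV line, against 21.1% and 26.9% of genes, and for 2 higher and 2 lower in the Wisp1 line, against 22.8% and 28.7%.

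Without Wisp1 collagen culture 2, Nfkb2 (edgeR adjusted p = 0.016) and Birc3 (0.030) were also called in the Wisp1 line, which made 5. When all 18 libraries shared a fit, Nfkbia was no longer called in either line (edgeR adjusted p = 0.269 and 0.344) and Traf1 was not called in the Wisp1 line (0.127). The leukocyte markers summed to 8.75 to 10.8 CPM in EV cultures and 9.42 to 14.2 CPM in Wisp1 cultures on plastic, and to 11.4 to 17.3 and 14.1 to 21.7 CPM on collagen. They were led by Lyz2, at most 13.3 CPM, and Cd68, at most 11.5 CPM, with Cd3e at 0 and Ptprc at most 0.705 CPM. The fibroblast markers summed to 15.1 to 21.3 CPM on plastic and 23.9 to 32.7 CPM on collagen. The part of either in these results was not tested.

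Of the 63 other pathway genes tested on collagen, 16 rose and 13 fell in the EV line and 20 rose and 12 fell in the Wisp1 line (edgeR adjusted p under 0.05), with median log2 changes of 0.08 and 0.06. Over all genes 19.2% rose and 17.3% fell in the EV line, and 21.3% and 19.1% in the Wisp1 line, so collagen calls were common throughout and nothing particular to the pathway is read from these counts. The receptors Tnfrsf1a (1.32-fold in both lines) and Tnfrsf12a (1.41-fold and 1.37-fold), the adaptors Myd88 (1.32-fold and 1.29-fold) and Tab1 (1.28-fold and 1.30-fold), and the kinase Ikbke (1.40-fold and 1.39-fold) rose in both. So did Plau, the urokinase plasminogen activator (1.86-fold and 2.06-fold). The cytokine Il1a fell 2.50-fold and 2.25-fold, Vcam1 fell 1.51-fold and 1.45-fold, the mitochondrial superoxide dismutase Sod2 fell 1.33-fold and 1.41-fold, and the atypical IkB gene Nfkbiz fell 1.26-fold and 1.31-fold. The IkB kinase gene Chuk fell 1.13-fold and 1.20-fold.

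For forced Wisp1 expression, none of the 10 genes passed the test on plastic or on collagen. On plastic all 10 estimates were positive, but the log2 changes were only 0.00 to 0.17, and every member's ranges in the 2 lines overlapped, where 12.5% of all genes had ranges that did not. None passed in edgeR, where 0.0143% of genes were called, and none had an unadjusted p under 0.05, as 5.89% of all genes had. DESeq2 called 0 members and 0.0821% of genes. The 95% intervals of the 10 fold changes lay between 0.81 and 1.31. On collagen 9 estimates were negative and Bcl3 was positive, with log2 changes of -0.11 to 0.18 and intervals between 0.736 and 1.31. There edgeR called 0.0717% of genes and 0 members, and none had an unadjusted p under 0.05, as 5.07% of all genes had. DESeq2 called 0 members and 0.244% of genes.

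Bcl3 on collagen was at 3.95, 4.32 and 4.39 CPM in the EV line and at 5.005, 4.95 and 4.45 CPM in the Wisp1 line. These ranges did not overlap, as for 5.51% of all genes in that direction, and the change was 0.18 ± 0.10 (edgeR adjusted p = 0.98). With the replicate number as a block within each substrate, Nfkb2 on plastic was 1.08-fold higher in the Wisp1 line (edgeR adjusted p = 0.034), where 3.15% of all genes were called, and 0 members were called on collagen, where 2.57% were. The difference of the Wisp1 effect between collagen and plastic was called for 0 of 13953 genes (0%) by edgeR. No member had an unadjusted p under 0.05 for it, as 2.94% of all genes had. DESeq2 called 0 members and 0.00456% of genes, and the smallest member adjusted p by edgeR was 0.973. None of the 63 other pathway genes tested was called for Wisp1 on either substrate.

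Without the replicate block, the members called with TGFb1 in parental cells were other genes than those called on collagen in the EV line, while with the block Traf1 and Icam1 were called in both. The difference between the 2 effects was tested, a choice made after these values had been seen. In an edgeR fit of the 12 libraries concerned, 8.22% of 15101 genes had a TGFb1 effect called above the collagen effect and 8.26% below it. That fit shared its estimate of the spread between parental and EV libraries. The median SD over all genes was 0.22 log2 in untreated and 0.24 in TGFb1 cultures, but 0.08 in both EV groups. For Icam1 the SD was 0.67 and 0.80 in the parental groups, and 0.10 on plastic and 0.29 on collagen in EV. Nfkbie (0.75 ± 0.13 log2, adjusted p = 0.0031), Birc3 (0.50 ± 0.13, 0.020) and Icam1 (1.97 ± 0.58, 0.040) were called above, and Traf1 (-0.89 ± 0.20, 0.010) below. The Traf1 estimate was negative with TGFb1 and positive on collagen. With the parental pairs as a replicate block in that fit, 6 members were called, where 22.1% of all genes were called above and 21.7% below. They were the same 4, with adjusted p of 0.00013 for Nfkbie, 0.0014 for Birc3, 2.4e-05 for Icam1 and 6.9e-06 for Traf1, and also Nfkb2 (0.30 ± 0.11 log2, 0.038) and Bcl3 (0.52 ± 0.16, 0.020), both above. Without the block the Nfkbia difference was not called (-0.25 ± 0.32, adjusted p = 0.67). Birc3 was then lost without EV collagen culture 3 (adjusted p = 0.059), EV plastic culture 1 (0.056) or EV plastic culture 3 (0.056), and Icam1 was lost in 10 of the 12 fits that left out 1 library (0.062 to 0.099), all but those without TGFb1 culture 3 or untreated culture 1. Parental and EV cells also differ in lentiviral transduction, selection and harvest, which cannot be told apart from the pairing of these 2 effects.

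**Figure D4:**
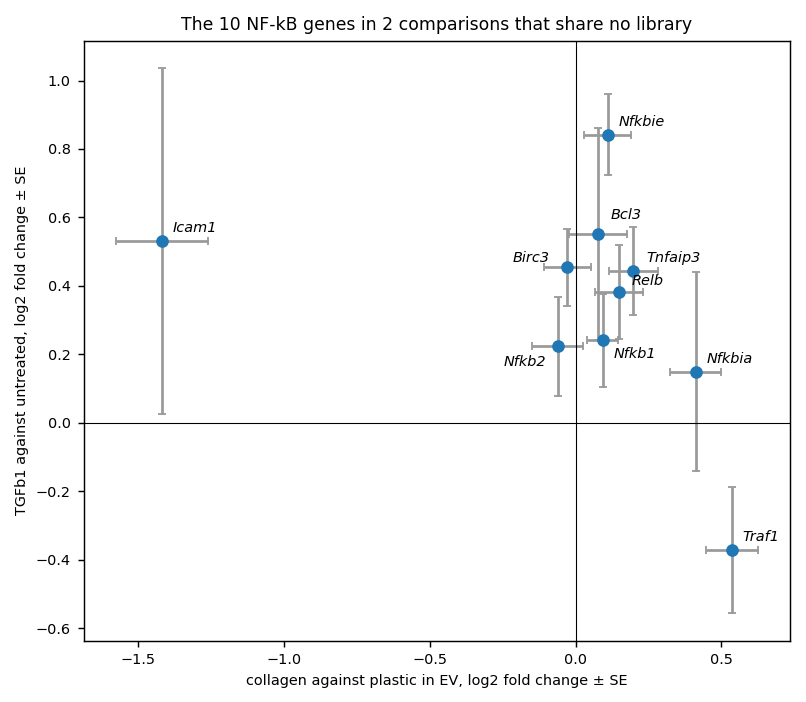
Log2 fold change with TGFb1 against untreated in parental cells (y axis) against that on collagen over plastic in the EV line (x axis) for the 10 genes, with SE bars, from comparisons that share no library. Icam1 lies at -1.42 on the x axis, Nfkbie at 0.84 on the y axis, and Traf1 in the lower right at 0.54 and -0.37.

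Icam1 had the largest range of group means, and the genes whose centred log2 group means were most like its own over the 6 groups, among 10511 genes with a mean of at least 5 CPM, were Trib3, Atf3, Arhgap29, Sesn2 and Mum1l1. The root mean square differences were 0.18, 0.21, 0.24, 0.31 and 0.32 log2. Trib3 stood at 43.9 and 37.3 CPM in the EV and Wisp1 lines on plastic and at 15.3 and 15.9 CPM on collagen. It was at 18.4 CPM in untreated and 19.0 CPM in TGFb1 cultures. These genes were picked for their likeness to Icam1, so their levels are a description.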

How the data were processed

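The members and gene lists were chosen with earlier results of these data known. The authors deposited unnormalized read counts for each gene symbol. Per the submitters' processing notes, mm9, R 3.2.4, limma, HTSeq, STAR, BWA and CASAVA were used, in roles that are not stated. The annotation and the strand setting were not given in the sources used here. A kit that keeps strand was used for the libraries, per the labels' protocols. Summary entries (13.9 to 17.5% of counted reads per library) were left out.

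Counts were tested with edgeR 4.0.16 (filterByExpr, TMM, robust quasi-likelihood) in R 4.3.3, with Benjamini-Hochberg adjustment over all genes and a threshold of 0.05, in a fit of 6 parental libraries (14874 genes) and a fit of 12 stable-line libraries (13953 genes). The procedure was tested on simulated data. DESeq2 1.42.0, another scaling, no filter, all 18 libraries in a fit, replicate blocks and leave-one-out fits were alternatives. Same-numbered libraries were taken as pairs where every correlation of deviations exceeded 0.1: TGFb1 with untreated (0.55 to 0.79), and Wisp1 with EV on plastic (0.12 to 0.22) and on collagen (0.15 to 0.47). The labels give the parental pairs shared codes whose meaning is not stated. Collagen and plastic did not pair (lowest -0.13 in EV and -0.07 in Wisp1).

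Named were all 10 members, up to 3 called genes per pathway list with the smallest p, and 5 genes like the most variable member. Promoter windows came from RefSeq tables of GRCm38.p6, exon lengths from GENCODE M21. The mm9 genome was not used here.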

Additional observations from a re-analysis of the deposited data

How the results depend on the processing

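Under all alternatives together, 917 of 980 member values stayed on their side of the threshold, 24 calls were lost and 39 gained, and no called value changed sign. Of 773 values past the threshold in neither fit, 55 changed sign. For TGFb1, 2 members were called, where 1645 genes were called in all. The count was 1 with no filter (1552 genes) and 6 with all 18 libraries in a fit (4865). It was 9 with the replicate block (6672). With the block and without replicate 1, 2 or 3 it was 8, 5 and 9 (6261, 4344 and 6344). Those 3 fits were added after seeing the data. Without 1 library it was 0 to 2 (380 to 1430). Calls over all genes thus also rose where more than 2 members were called. Wisp1 on plastic gave 1 member with the replicate block within each substrate (440 genes), against 0 (2 genes). Leaving out 1 library gave 0 to 0 there, on collagen and for their difference. Collagen in the Wisp1 line gave 3 members (5641 genes) and 1 with all 18 libraries in a fit (2071). It gave 4 by DESeq2 (5669) and with only the 6 libraries compared (5092), and 3 to 5 without 1 library (4450 to 5443). In the EV line the count was 3 (5095 genes), 2 with all 18 libraries in a fit (1629), and 3 to 4 without 1 library (3849 to 4598). With a replicate block over all 4 groups collagen gave 4 members in each line, adding Tnfaip3 in EV (edgeR adjusted p = 0.040) and Nfkb2 in Wisp1 (0.041), though the numbers there did not pair. The difference between the TGFb1 and collagen effects, added after seeing the data, gave 4 members (2488 genes). It gave 6 with a replicate block of the parental pairs (6613) and 2 to 4 without 1 library (1755 to 3066). Beside these and the calls given with the TGFb1 and Wisp1 results, the block changed no member call. Where leaving out a library left 2 in a group, the spread was pooled over groups. The lowest count of a member in a library was 53.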
